A study of Mus musculus with 3 samples.

Results

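The methylome of spermatogonia lacking *Pld6* was compared with that of WT spermatogonia at postnatal day 7 (P7), CpG site by CpG site, by gene feature and in 10-kb windows. 2 of the 3 samples of the series were used, 1 labelled WT and 1 labelled *Pld6* KO. Both were from C57BL6/J mice and were sorted with an antibody to EpCAM, a surface protein of spermatogonia. The study's methods state that the knockout alleles were backcrossed to this strain and that mice heterozygous for *Pld6* or *Dnmt3l* were used as WT besides homozygous ones. Which of these gave the WT library is not given in the sources used here. DNA was sequenced after bisulfite treatment, which leaves methylated cytosines as C and turns unmethylated ones into T, and each CpG on a read was called methylated or unmethylated. Adaptors were added after the bisulfite step (post-bisulfite adaptor tagging). The methylation level is the number of methylated calls divided by all calls (in fraction).

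PLD6, also called MitoPLD or Zucchini, is a protein of the outer mitochondrial membrane that is needed to make piRNAs, the small RNAs bound by PIWI proteins in germ cells. In fetal prospermatogonia the genome is methylated anew after a phase of erasure, and piRNAs guide part of this *de novo* methylation to transposons, among which the young L1 families are the best known. Spermatogonia at P7 carry the pattern that was laid down before birth.

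Of 20383623 autosomal CpG sites of the reference, 12674023 (62.2%) had calls in both libraries and were compared, 1458419 had calls in WT only and 3076620 in *Pld6* KO only. The compared sites held 40121137 calls in WT (3.17 per site) and 54795794 in *Pld6* KO (4.32 per site). The study's methods mention biological replicates, of which 1 file for each genotype was analysed here. It was taken as 1 library, and whether it pools replicates is not given in the sources used here. So there is no spread between animals, so that every value is given with its calls and, where useful, a 95% interval, and no test between genotypes was made. What differs by genotype and what differs by library cannot be told apart here. The intervals (Wilson for a level, Newcombe for a difference) cover counting error only, and calls of the same read or molecule are linked, which can make them too narrow. Every difference is *Pld6* KO minus WT. In the targeted gene, exon 1 of *Pld6* (mm10 chr11:59787218-59787657, minus strand, 37 CpG sites) had 90 calls in WT and 0 in *Pld6* KO, and the rest of the gene (63 CpG sites) had 186 and 239 calls.

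Sequences around the starts of 5 genes are shown, each picked for a difference described below. Each is 300 bases from RefSeq (GRCm38.p6), 5′ to 3′ on the strand of the gene, and capitals mark the CpG sites. *Gm36816* had the largest promoter decrease and lies in tandem L1Md_A sequence, *Gm42270* was another promoter with a large decrease, *Epm2a* had its decrease upstream of the unmethylated CpG-dense stretch shown, *Henmt1* had the largest difference among the piRNA pathway genes, and _1700008P02Rik_ had the largest increase. For *Epm2a* and *Henmt1* the start in the sequence table lies downstream of the gene start used here, so that the bases shown lie outside their compared promoters, in what is counted here as the gene body.
Gm36816: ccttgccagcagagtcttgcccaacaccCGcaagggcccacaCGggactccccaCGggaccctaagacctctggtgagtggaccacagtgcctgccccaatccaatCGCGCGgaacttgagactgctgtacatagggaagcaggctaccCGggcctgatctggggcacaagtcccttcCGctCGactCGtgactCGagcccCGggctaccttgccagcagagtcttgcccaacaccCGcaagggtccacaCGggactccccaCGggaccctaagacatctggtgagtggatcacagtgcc
Gm42270: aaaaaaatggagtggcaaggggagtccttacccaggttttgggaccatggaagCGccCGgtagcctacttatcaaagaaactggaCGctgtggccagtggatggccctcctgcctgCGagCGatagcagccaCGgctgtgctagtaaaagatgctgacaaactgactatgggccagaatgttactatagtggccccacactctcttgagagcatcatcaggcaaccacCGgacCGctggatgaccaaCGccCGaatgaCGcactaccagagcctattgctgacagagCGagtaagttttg
Epm2a: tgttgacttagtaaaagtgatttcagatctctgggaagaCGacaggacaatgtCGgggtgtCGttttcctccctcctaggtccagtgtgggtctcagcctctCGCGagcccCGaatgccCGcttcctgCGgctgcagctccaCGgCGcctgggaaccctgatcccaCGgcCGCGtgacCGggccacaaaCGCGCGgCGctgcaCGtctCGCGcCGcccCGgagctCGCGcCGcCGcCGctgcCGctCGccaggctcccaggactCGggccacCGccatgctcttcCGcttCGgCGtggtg
Henmt1: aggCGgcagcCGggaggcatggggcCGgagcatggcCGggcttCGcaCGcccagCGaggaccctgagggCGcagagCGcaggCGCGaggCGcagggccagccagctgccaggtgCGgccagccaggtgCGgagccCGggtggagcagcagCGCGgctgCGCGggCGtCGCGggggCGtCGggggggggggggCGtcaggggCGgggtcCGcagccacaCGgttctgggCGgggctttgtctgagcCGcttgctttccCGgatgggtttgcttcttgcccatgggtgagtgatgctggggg
1700008P02Rik: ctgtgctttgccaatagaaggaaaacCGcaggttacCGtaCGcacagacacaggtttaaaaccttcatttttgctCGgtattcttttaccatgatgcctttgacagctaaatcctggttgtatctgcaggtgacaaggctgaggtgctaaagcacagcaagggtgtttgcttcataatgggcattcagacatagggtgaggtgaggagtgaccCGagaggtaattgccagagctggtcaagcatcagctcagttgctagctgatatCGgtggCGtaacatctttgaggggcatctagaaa

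The *Gm36816* sequence lies at chr6:67008938-67009237 on the minus strand and overlapped 3 matches to the L1Md_A amplicon of the study, with up to 97.7% identity. Of its 15 CpG sites, 3 had calls in both libraries, and at these 4 of 4 calls were methylated in WT and 0 of 8 in *Pld6* KO. The *Gm42270* sequence (chr4:39386735-39387034, plus strand) had 12 CpG sites and no L1Md_A match. At its sites at bases 54 and 58, counted from 1 at the 5′ end, 8 of 8 WT calls and 1 of 8 *Pld6* KO calls were methylated. In the *Epm2a* sequence (chr10:11343195-11343494, plus strand), 31 of 35 CpG sites were compared, and 0 of 131 calls in WT and 1 of 124 in *Pld6* KO were methylated. The *Henmt1* sequence (chr3:108940307-108940606, plus strand) begins past the end of the compared promoter (chr3:108937454-108939954). It had 26 compared sites of 31, with 1 of 64 calls methylated in WT and 16 of 69 in *Pld6* KO. The sites at bases 4, 11, 26, 37 and 44 each had 1 methylated *Pld6* KO call. Calls at neighbouring sites can come from the same read, so that these calls are not independent observations. Which calls share a read cannot be told from the counts. At _1700008P02Rik_ (chr3:6620394-6620693, minus strand), the 4 compared sites of 7 had 1 methylated call of 13 in WT and 11 of 13 in *Pld6* KO. The site at base 76 had 0 methylated calls of 4 in WT and 4 of 4 in *Pld6* KO.

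Over all compared sites the libraries differed little. The level was 0.703 in WT and 0.722 in *Pld6* KO, a difference of 0.0188 (95% interval 0.0186 to 0.0190). This difference depended on how calls are spread over sites. When each site was compared with itself (the Mantel-Haenszel difference, which weights a site by the calls of both libraries and is called the within-site difference here), it was -0.00272, on the other side of 0. The mean of the site levels was 0.742 in WT and 0.734 in *Pld6* KO. The pooled level of WT was lower at sites with more WT calls, from 0.763 at sites with 1 call to 0.642 at sites with 10 to 14 calls, whereas that of *Pld6* KO went from 0.717 to 0.782 with its own calls. The part of this relation to coverage in the pooled differences was not tested.

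The features of genes had very different levels in both libraries and small differences between them. At promoters, which start 2 kb before a RefSeq gene start and end 0.5 kb after it, the level was 0.269 in WT and 0.312 in *Pld6* KO. Exons had 0.652 and 0.691, and introns had 0.803 and 0.810. Intergenic sites had 0.711 and 0.721. The pooled differences were thus 0.0439 at promoters, 0.0391 in exons, 0.00748 in introns and 0.00923 in intergenic sites. Within sites they shrank to 0.00629 and 0.00109 at promoters and exons, and were -0.00406 and -0.00426 in introns and intergenic sites.

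Repeats stood apart from the rest of the genome. Sites in bases that the reference marks as repeats, 15.8% of the compared sites, had 0.661 in WT and 0.659 in *Pld6* KO, and the unmasked sites had 0.713 and 0.736. The within-site difference was -0.0171 in repeats and 0.000777 outside them. A few sites with very many calls weigh on the repeat values. The 3770 sites with more than 20 calls in either library held 6.97% of the WT calls and 6.73% of the *Pld6* KO calls. Without them, the level in repeats was 0.792 in WT and 0.763 in *Pld6* KO, a pooled difference of -0.0287 and a within-site difference of -0.0384. In each of the 4 features, the within-site difference was lower in repeat-masked than in unmasked sites, for example -0.0209 against -0.00114 in introns.

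**Figure D1:**
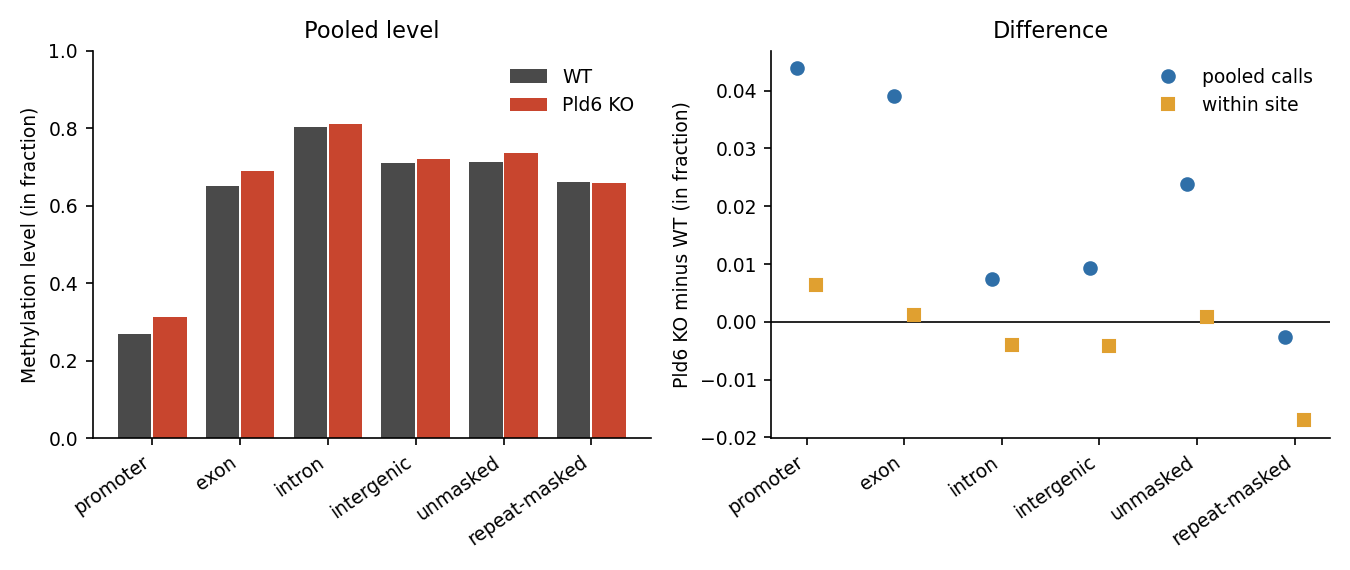
Left, pooled methylation level (in fraction) of WT (grey) and *Pld6* KO (red) by feature and by repeat masking. Right, the difference *Pld6* KO minus WT from pooled calls (circles) and within sites (squares). The within-site differences lie closer to 0 than the pooled ones, except in repeat-masked sites, where the value is -0.0171.

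Most single sites kept their class. Among 1280284 sites with 5 to 20 calls in each library, 17.0% had a level of 0.2 or less in WT and 16.1% in *Pld6* KO, and 65.7% and 65.1% had 0.8 or more. Of the sites at 0.8 or more in WT, 83.8% were at 0.8 or more in *Pld6* KO and 0.475% were at 0.2 or less, which were 3991 sites. In the other direction, 4039 sites were at 0.2 or less in WT and at 0.8 or more in *Pld6* KO, or 1.86% of the sites that were low in WT. By the bases on each side of the CpG, the within-site difference ranged from -0.0144 for TCGA to 0.00565 for ACGT, at sites with at most 20 calls. On the 19 autosomes, without this limit on calls, it ranged from -0.00992 on chromosome 3 to 0.00933 on chromosome 2. The mean of the site levels on chromosome 2 differed by -0.00698, with the opposite sign. On the sex chromosomes, which are left out of the comparison of regions, the within-site difference was -0.0247 on X and -0.0876 on Y, also without the limit.

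Around the starts of 20558 autosomal protein-coding genes both libraries showed the same valley. The level from 0 to 250 bp downstream of the start was 0.0511 in WT and 0.0648 in *Pld6* KO. Between 1250 and 1000 bp upstream, on the slope of the valley, it was 0.421 and 0.475, the largest pooled difference of the upstream slope (0.0536), with a within-site difference of 0.0199. At 5 kb upstream the within-site difference was 0.000964. Along 13281 genes of at least 10 kb, the level was 0.221 and 0.256 in the first 5% of the length and 0.828 and 0.835 in the part from 50 to 55%. In that middle part the within-site difference was -0.00462.

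**Figure D2:**
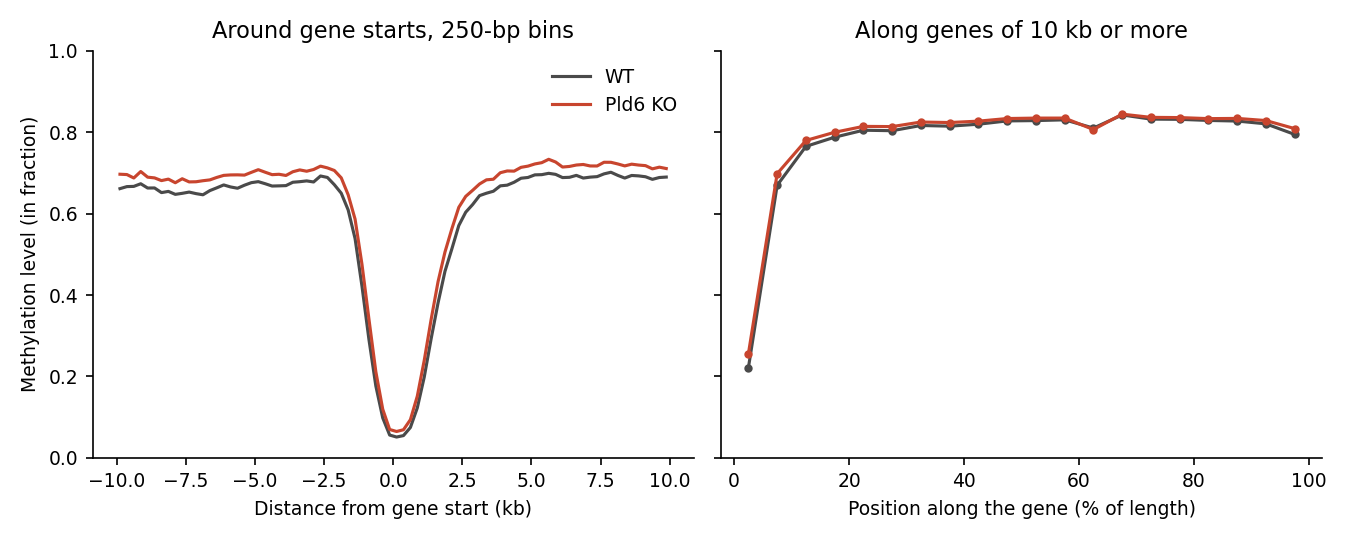
Methylation level (in fraction) of WT (grey) and *Pld6* KO (red) around gene starts in 250-bp bins by distance in kb (left) and along genes of 10 kb or more by percent of their length (right). Both lines reach their minimum at the start, 0.0511 in WT and 0.0648 in *Pld6* KO, and the *Pld6* KO line lies above the WT line on both slopes.

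In 10-kb windows, large decreases were found at a small share of places, mostly in repeats. Of 246285 autosomal windows, 234285 (95.1%) had 20 or more calls in both libraries, with a median of 123 calls in WT and 168 in *Pld6* KO. Their median difference was -0.00181, and 83.4% differed by less than 0.1. A difference of 0.3 was used as the mark. The study calls this size severe for the *de novo* methylation of retrotransposon consensus sequences, whereas here it is applied to the levels of single regions. In *Pld6* KO, 2913 windows (1.24%) were lower by at least 0.3 and 183 windows (0.0781%) were higher by at least 0.3. The SD of the differences was 0.0885, whereas the median counting error of a single window was 0.0414. In the 67848 windows with 200 or more calls in each library the SD was 0.0538 and the counting error 0.0280. The lower windows lay on all 19 autosomes, from 0.570% of the windows of chromosome 19 to 1.83% of those of chromosome 4. They were mostly single, since 222 of them (7.62%) adjoined another lower window, and no 100-kb window was lower by 0.3.

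The lower windows were rich in repeats and poor in genes. The median repeat-masked share was 69.7% in lower windows and 28.3% in all windows, and 23.5% of them lay over a gene against 57.01% of all. The share of windows that were lower went from 0.00969% where under 20% of the window was masked, through 0.245%, 1.75% and 7.58% in the classes between, to 13.7% where 80% or more was masked. By GC content it was largest in the tenth of windows between 40.3 and 41.4% GC, at 2.60%, and smallest in the tenth of highest GC, at 0.0642%. Their median level was 0.848 in WT and 0.436 in *Pld6* KO. Higher windows had a median of 0.468 in WT and 0.817 in *Pld6* KO. Both groups had fewer calls, with a median of 58 WT calls in lower and 42 in higher windows, against 123 over all windows. In the less covered library, 113 of the 183 higher windows and 1191 of the 2913 lower windows had fewer than 50 calls. Of all 234285 windows, 32448 did. The share of windows that were lower went from 3.67% at 20 to 49 calls to 0.0280% at 200 calls or more. The part of coverage in these counts was not tested.

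The study's bisulfite PCR amplicons for 8 retrotransposons were used to mark windows that hold young copies. L1Md_A is a young L1 family, the IAP and ETn families and MMERGLN, MMERVK10C and MERVL are endogenous retroviruses. Windows with an L1Md_A match made up 0.710% of all windows and 17.5% of the lower ones. Of these 1663 windows, 510 (30.7%) were lower by 0.3 and none was higher, against 1.24% and 0.0781% of all windows, and their median level was 0.841 in WT and 0.604 in *Pld6* KO. Windows with a match to RLTR1B-MMERGLN_I were lower in 14 of 58 cases (24.1%), those with RLTRETN_Mm in 28 of 296 (9.46%) and those with RLTR4 in 4 of 62 (6.45%). The IAPLTR1_MM windows, 17 of 1068 (1.59%), the MT2-MERVL windows, 17 of 1380 (1.23%), and the RLTR10C-MMERVK10C windows, 4 of 238 (1.68%), were near the share of all windows. Their median differences were -0.0265, -0.00738 and -0.0266 in the same order, against -0.00181 over all windows. None of the 4 RLTR6 windows was lower. All 8 amplicons together were found in 20.3% of the lower windows. A further 51.1% of the lower windows had no match but were at least 60% masked, and of all such windows 7.63% were lower.

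At L1Md_A matches the difference had a short reach, at sites with at most 20 calls in each library. Sites inside a match had 0.876 in WT (12436 calls) and 0.230 in *Pld6* KO (18500 calls), a difference of -0.646 (95% interval -0.654 to -0.637). Within 500 bp of a match the levels were 0.838 and 0.194. From 500 to 1000 bp they were 0.765 and 0.485, and from 1000 to 2000 bp they were 0.788 and 0.745. Between 2000 and 5000 bp the difference was 0.000791 (-0.00399 to 0.00558), and the within-site difference was -0.00867. The amplicon is much shorter than a full L1 element, and whether the neighbouring sites lie in the same copy was not examined.

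**Figure D3:**
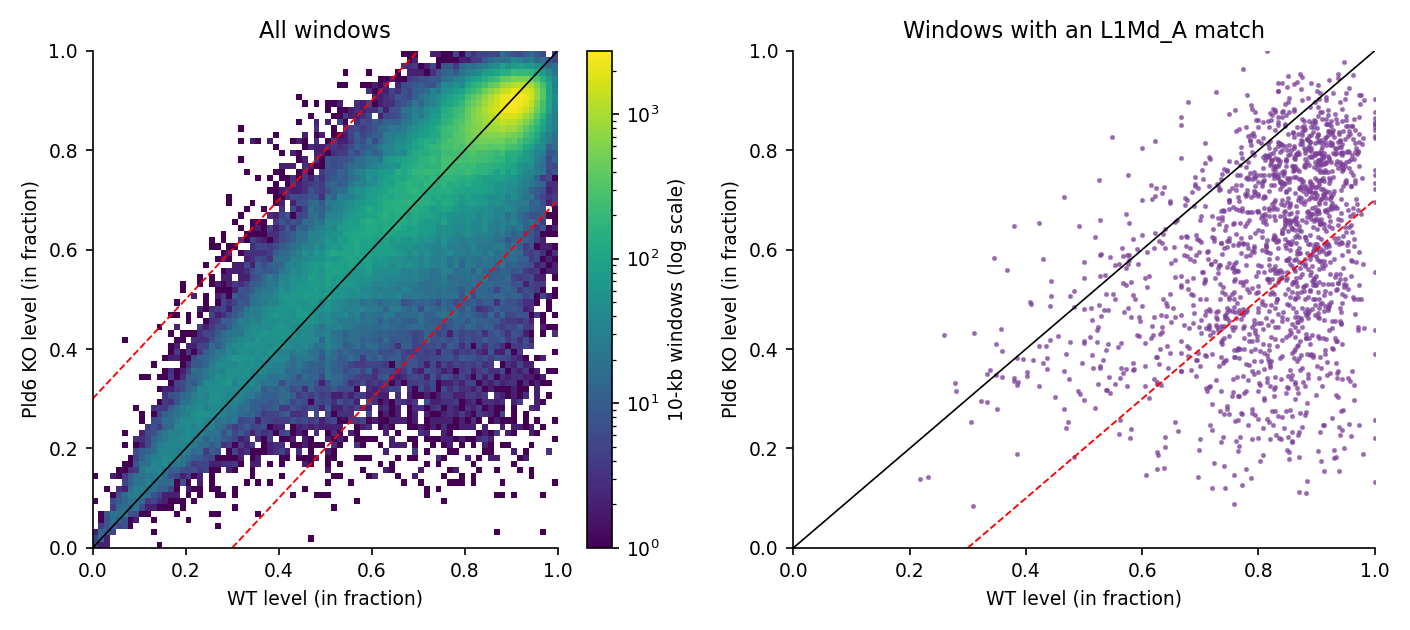
WT level against *Pld6* KO level (both in fraction) of 10-kb windows, each with 20 calls or more in both libraries. Left, all 234285 windows, coloured by their number on a log scale. Right, the 1663 windows with an L1Md_A match, as points. The black line marks equal levels and the dashed red lines a difference of 0.3. Of the windows with a match, 510 lie on or below the lower dashed line.

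**Figure D4:**
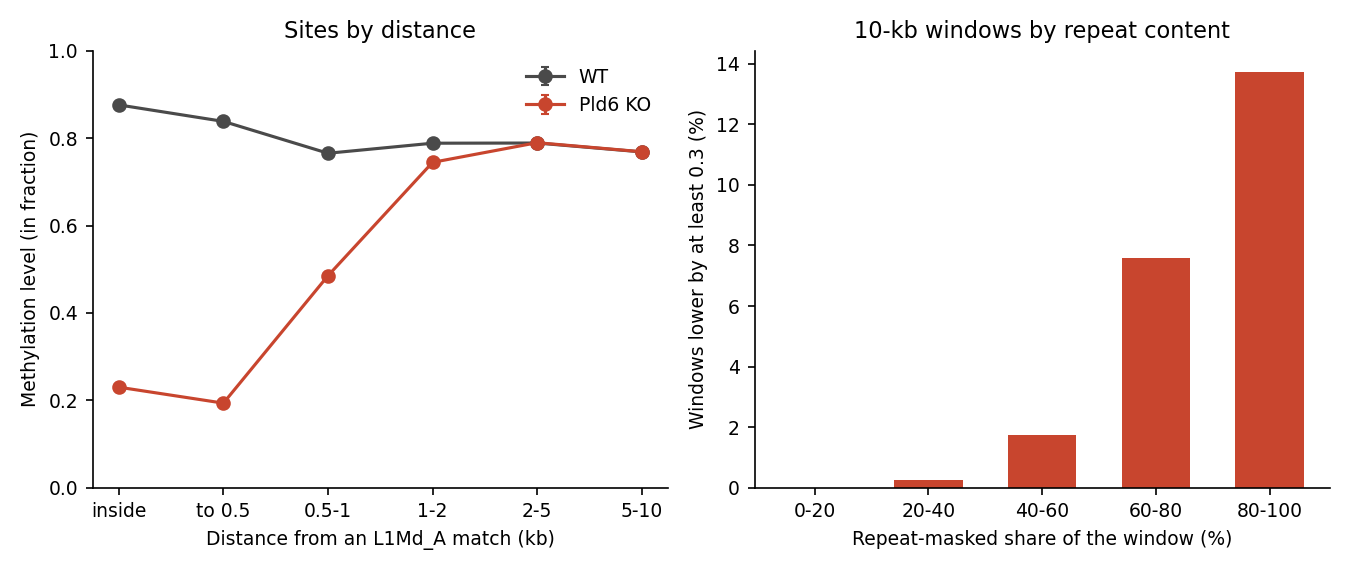
Left, methylation level (in fraction) of WT (grey) and *Pld6* KO (red) at sites inside L1Md_A matches and by distance from them in kb, with 95% Wilson intervals that are smaller than the points. The left panel uses sites with at most 20 calls in each library. Right, percent of 10-kb windows lower by at least 0.3 by the repeat-masked share of the window, which went from 0.00969% to 13.7%.

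The windows with the largest decrease were named by the bound of their interval that lies nearest to 0. The first lay on chr11:14120001-14130000 over _4930554G24Rik_, with 0.963 in WT (27 calls) and 0.0333 in *Pld6* KO (60 calls). It was 96.5% masked and held no match to the amplicons. In the window on chr2:61850001-61860000, outside genes, the levels were 0.974 and 0.111. On chr16:54460001-54470000, with 2 L1Md_A matches, they were 1 and 0.132. In each of these 3 windows nearly all calls were methylated in WT and few in *Pld6* KO.

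The window on chr6:67000001-67010000 holds *Gm36816* and part of *Gng12*, a G protein subunit gene, and 14 L1Md_A matches. Its level was 0.98 in WT and 0.188 in *Pld6* KO. The window in *Filip1*, a gene of a filamin-interacting protein (chr9:79900001-79910000), was 99.9% masked with 21 matches, and had the most calls of the windows that were low throughout, 168 in WT at 0.940 and 344 in *Pld6* KO at 0.227. The others were on chr11:19080001-19090000, chr12:58490001-58500000 over *Gm30687*, chr9:17850001-17860000 and chr6:62560001-62570000, with WT levels from 0.871 to 0.98 and *Pld6* KO levels from 0.0345 to 0.188.

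One of the 10 windows was of another kind. On chr1:160960001-160970000 in *Rc3h1*, which encodes the RNA-binding protein Roquin, the level was 0.872 in WT and 0.150 in *Pld6* KO. A single CpG, at position 160961225, had 808 of the 957 *Pld6* KO calls, 9 of them methylated, and 7 WT calls, 0 of them methylated. The other sites of the window had 0.927 in WT and 0.906 in *Pld6* KO, a difference of -0.0212 (-0.0888 to 0.0530). The same site gave the *Rc3h1* gene body its place among those with the largest decrease, with 0.871 and 0.448 but a within-site difference of -0.0271.

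Among the 5 windows with the largest increase, the level was 0.323 in WT and 0.816 in *Pld6* KO on chr18:90240001-90250000, and 0.312 and 0.844 in *Lrp1b*, a gene of the lipoprotein receptor family (chr2:41710001-41720000). The window with the most calls, on chr3:22300001-22310000, had 0.362 in WT (188 calls) and 0.746 in *Pld6* KO (236 calls). The other 2 lay on chr9:25920001-25930000 (0.377 and 0.817) and chr12:22050001-22060000 (0.356 and 0.812). All 5 were partly methylated in WT, and none held an amplicon match.

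Promoters were compared one by one where they had at least 20 calls in each library, which 31820 of 37308 autosomal promoters had. Their median level was 0.3 in WT and 0.340 in *Pld6* KO, and the median difference was 0.00966 (0.00362 within sites). In *Pld6* KO, 122 promoters (0.383%) were lower by at least 0.3 and 121 (0.38%) were higher. This balance moved with the settings. With promoters of 0.5 kb each way 0.355% were lower and 0.810% higher, at a difference of 0.2 it was 1.08% and 2.12%, and with at least 50 calls 0.139% and 0.185%. The lower promoters had a median of 0.840 in WT and 0.372 in *Pld6* KO, and 49.1% of their compared sites were repeat-masked, against 7.11% over all promoters. Of them 8 (6.56%) held an amplicon match, against 56 (0.176%) of all, and 39 (32.0%) belonged to protein-coding genes, against 56.3% of all, and 65 to long noncoding RNAs, against 10817 of all. The higher promoters had a median of 0.381 and 0.763, 13.2% of their sites were masked, none held a match, and 54 were of protein-coding genes and 54 of long noncoding RNAs. Olfactory receptor genes, a large family of CpG-poor genes, gave 14 of the 121 higher promoters and 7 of the 122 lower ones, and 1.12% of all promoters. Promoters past the mark had few calls, with a median of 39.5 WT calls in the lower and 40 in the higher ones, against 99 over all promoters. The part of this coverage in the counts was not tested.

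The counts differed with CpG density, and so did the room for a difference. A promoter needs a WT level of 0.3 or more to be lower by 0.3, which 50.003% of all promoters had, and one of 0.7 or less to be higher, which 63.1% had. Promoters with 75 or more CpG sites had a median level of 0.0518 in WT and 0.0633 in *Pld6* KO, and 12 of 9254 were lower by 0.3 and none was higher. Those with fewer than 25 CpG sites had 0.867 in both libraries, and 40 of 7169 (0.558%) were lower and 71 (0.990%) higher. The class between, with 15397 promoters, had 70 lower and 50 higher.

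The largest promoter decrease was that of *Gm36816*, a long noncoding RNA, with 0.941 in WT (51 calls) and 0.137 in *Pld6* KO (73 calls), a difference of -0.804 (-0.876 to -0.664). Its 2.5-kb promoter held 6 L1Md_A matches, 3 of which overlap the sequence printed above. Ranked by the bound of the interval nearest to 0, *Gm25679*, a small nuclear RNA gene, followed with 0.843 and 0.129 and a match to RLTR10C-MMERVK10C. *LOC115486431* (0.923 and 0.143) and *Gm42270* (0.929 and 0.162) lie next to each other on chromosome 4, and their promoters overlap. All 4 were above 0.8 in WT and below 0.2 in *Pld6* KO.

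*Sult2a4*, a sulfotransferase gene of the family that acts on hydroxysteroids, had 0.707 in WT (58 calls) and 0.0244 in *Pld6* KO (41 calls), and 14 of its 18 compared promoter sites were repeat-masked. *Epm2a*, the gene of the glycogen phosphatase laforin, had 0.750 (48 calls) and 0.117 (94 calls), with 10 of 19 sites masked. The unmethylated sequence printed for *Epm2a* starts just downstream of that promoter. Where within the promoter the decrease lay was not examined. *Gm42048* had 0.971 and 0.273 and held a match to RLTR1B-MMERGLN_I. *Gm40405*, *Mir8117* and *Gm52049* had WT levels from 0.880 to 1 and *Pld6* KO levels from 0.143 to 0.353. In these 10 promoters the within-site differences were from -0.764 to -0.489.

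In the other direction, the promoter of _1700008P02Rik_ had 0.0769 in WT (26 calls) and 0.759 in *Pld6* KO (29 calls), a difference of 0.682 (0.438 to 0.813). *Olfr609*, an olfactory receptor gene, had 0.150 (20 calls) and 0.826 (23 calls), at 6 compared sites. *Gm31046* had 0.308 and 0.863, *Gm11127* had 0.352 and 0.847, and *Gm23484*, a small nucleolar RNA gene, had 0.358 and 0.807. The within-site differences of these 5 promoters were from 0.304 to 0.714.

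**Figure D5:**
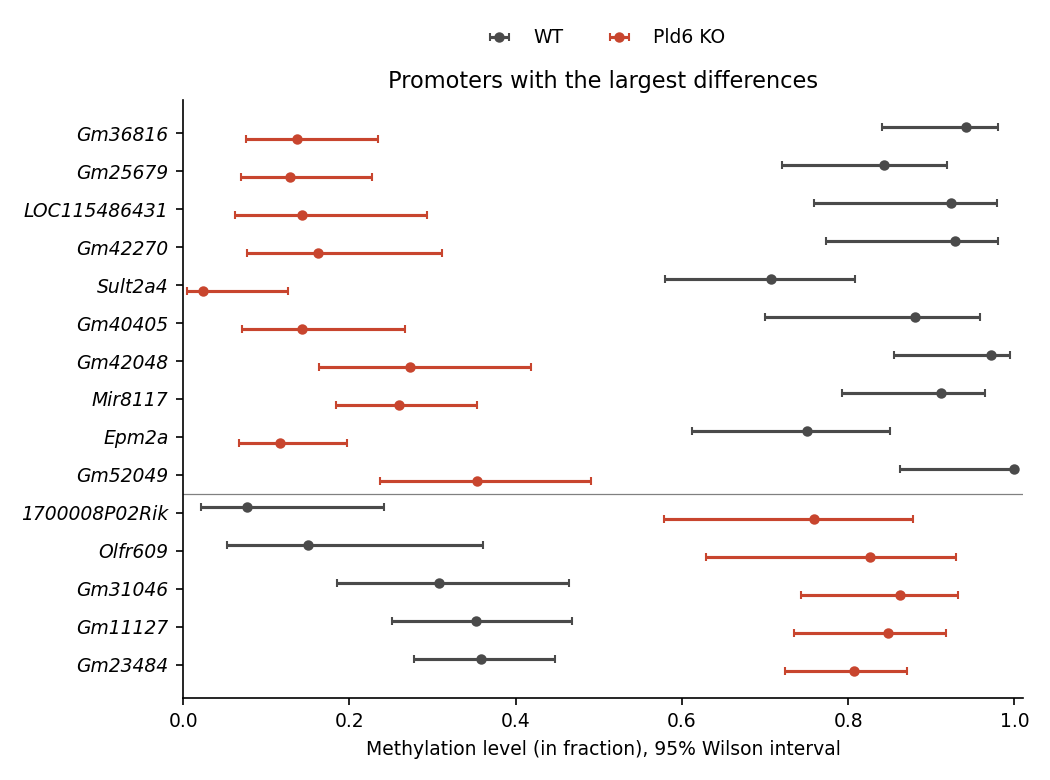
Methylation level (in fraction) with 95% Wilson intervals of WT (grey) and *Pld6* KO (red) for the 10 promoters with the largest decrease (above the line) and the 5 with the largest increase (below it). The promoters were chosen from this difference, by the bound of its interval nearest to 0. Those above the line are at 0.707 or more in WT and at 0.353 or less in *Pld6* KO, and those below it at 0.358 or less and at 0.759 or more.

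Gene bodies, from the end of the promoter to the end of the gene, could be compared for 29843 genes. In *Pld6* KO, 43 (0.144%) were lower by at least 0.3 and 38 (0.127%) were higher. The median level was 0.794 in WT and 0.804 in *Pld6* KO. *Gm40620* had 0.920 in WT (87 calls) and 0.147 in *Pld6* KO (150 calls). *Gm2046*, with an L1Md_A match, had 0.982 and 0.211, *Gm40405* had 0.917 and 0.192, and *Gm43305* had 0.844 and 0.207. With *Rc3h1*, described above, these were the 5 largest decreases when ranked by the bound of the interval nearest to 0, not by the difference itself. The largest increase was that of *Gm12273*, with 0.0968 in WT and 0.732 in *Pld6* KO. Of the next 4 by the same bound, *Gm42307* had 0.327 and 0.865, *Gm30078* had 0.0897 and 0.567, *Gm39991* had 0.247 and 0.672, and *Zdhhc25*, a palmitoyltransferase-like gene, had 0.359 and 0.828.

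*Gm12273* lies on chromosome 11 at 61951418, near *Pld6*, in a stretch where the libraries differed in another way. A base that differs from the reference, such as a T in place of the C of a CpG, reads as unmethylated. Sites that were fully methylated in WT (3 to 20 calls) and without a methylated call in *Pld6* KO (5 to 20 calls) made up 273 of 8429 sites (3.24%) from 54 to 63 Mb of chromosome 11, against 2419 of 1466378 (0.165%) on the rest of the autosomes. The limits of this stretch were set after the data were seen, so that its contrast with the rest is not independent of them. Among the 2248 autosomal 1-Mb bins with at least 100 sites fully methylated in WT, the largest shares were 8.70% at 58 to 59 Mb and 8.55% at 57 to 58 Mb of chromosome 11. Bins on chromosomes 17, 1 and 3 came next, from 6.67% down to 5.22%, each with 6 to 9 such sites. The bin at 56 to 57 Mb of chromosome 11 followed with 4.74% (19 sites). The opposite pattern was not more frequent from 54 to 63 Mb of chromosome 11 than on the rest of the autosomes (0.257% against 0.671%). The within-site difference was -0.0276 in this stretch and -0.00486 on the rest of chromosome 11. The DNA sequence of the mutant animals was not examined here, and its part in these values was not tested.

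Imprinted regions were used as marks of male germ cells, in which the maternal imprints are erased and the paternal ones set, whereas somatic cells carry both at intermediate levels. For the maternal imprints, promoters at the annotated gene starts were taken, and whether each covers the maternally methylated region was not examined. A low level at a start that does not cover it is no mark of an erased imprint. Of 14 such promoters with enough calls, 13 had levels of 0.376 or less in WT, and the median was 0.136 in WT and 0.147 in *Pld6* KO. In 10 of the 14 *Pld6* KO was higher, the median difference was 0.0319 (0.0193 within sites), and the interval lay above 0 in 5 and below 0 in 0, against 12.1% and 4.37% of all promoters, whose median difference was 0.00966. The exception to the low levels was the annotated start of *Impact* (0.892 and 0.829). The largest difference was that of *Nnat* (0.168 and 0.264) and the smallest that of *Plagl1* (0.0779 and 0.0731). *Snrpn* had only 6 and 11 calls and was left out. Of the paternally methylated regions, the one 2 to 4 kb upstream of *H19* had 0.859 and 0.881, that 10 to 20 kb upstream of *Meg3* 0.848 and 0.894, and that 5 to 15 kb upstream of *Zdbf2* 0.897 and 0.858. From 20 to 40 kb upstream of *Rasgrf1*, a locus whose paternal methylation is known to need the piRNA pathway, the level was 0.679 in WT and 0.602 in *Pld6* KO. In the 2-kb piece at chr9:89879508-89881507 it was 0.783 (23 calls) and 0.127 (55 calls). The piece at chr1:63185358-63187357, the farthest from *Zdbf2*, had 0.973 (37 calls) and 0.646 (48 calls). The other 2-kb pieces upstream of *Rasgrf1*, *Meg3* and *Zdbf2* differed by less than 0.3.

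Promoters of the piRNA pathway, 20 genes, had a median difference of 0.0264, against 0.00966 over all promoters. In 14 of them *Pld6* KO was higher. The interval of the difference lay above 0 in 5 and below 0 in 1, against 12.1% and 4.37% of all promoters, and none differed by 0.3. The largest difference was that of *Henmt1*, the methyltransferase that protects the 3′ ends of piRNAs (0.263 and 0.522). *Tdrd12*, a Tudor domain gene, was the one below 0 (0.433 in WT and 0.225 in *Pld6* KO). *Ddx4*, the germ cell RNA helicase Vasa, had the smallest difference (0.0949 and 0.0960). The promoter of *Pld6* contains exon 1, and at the 6 of its 76 CpG sites that were compared it had 0.952 (21 calls) and 0.968 (31 calls).

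No promoter of the next 5 lists differed by 0.3. Among 16 meiosis and germline promoters, 12 were higher in *Pld6* KO, with a median difference of 0.0552 (0.0408 within sites), against 0.00966 (0.00362 within sites) over all promoters. The interval lay above 0 in 4 and below 0 in 0, against 12.1% and 4.37% of all promoters. The largest difference was that of *Syce1*, a synaptonemal complex gene (0.0804 and 0.213). *Rec8*, a meiotic cohesin gene, had the smallest (0.122 and 0.111). In 14 spermatogonial promoters the median difference was 0.0148 (0.0162 within sites), with 0 intervals below 0 and 1 above it, that of *Stra8*, a retinoic acid target at meiotic entry (0.460 and 0.655), and the smallest difference at *Sall4*, a stem cell transcription factor (0.117 and 0.125).

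The 9 promoters of the DNA methylation machinery had a median difference of 0.0311 (0.0167 within sites), with 1 interval above 0 and 0 below it. *Morc1*, which is needed for transposon methylation in the male germ line, had the largest difference (0.175 and 0.336) and *Tet2* the smallest (0.0242 and 0.0224). Housekeeping genes gave 9 promoters, with the largest difference at *Actb* (0.411 and 0.606) and the smallest at *Tbp* (0 and 0.0204), and a median of 0.0423. The interval lay above 0 in 3 of them. At *Actb* the compared promoter, at the annotated start, held 21 CpG sites, whereas the gene body, with 200 CpG sites, had 0.0976 and 0.205. The within-site difference of *Actb* was 0.196 in the promoter and 0.00741 in the gene body. Somatic testis genes, also 9, had a median of 0.0530, with *Star* of steroid synthesis the largest (0.610 and 0.804) and *Vim* the smallest (0.00467 and 0.00621), and the interval lay above 0 in 3. None lay below 0 in either list. Over all promoters the interval lay above 0 in 12.1% and below 0 in 4.37%, and the median difference was 0.00966. For the last 2 lists the median within sites was 0.00482 and 0.00686, against 0.00362 over all promoters.

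The study tied 13 genes to activated retrotransposon copies in *Pld6* KO spermatocytes, so that this list is not independent of the mutant. Of their 12 promoters with enough calls, 6 were higher and 6 lower, the interval lay above 0 in 0 and below 0 in 2, against 12.1% and 4.37% of all promoters, and 1 was lower by 0.3, against 0.383% of all. This was *Tmc2*, a gene of hair cell mechanotransduction, with 0.910 in WT (100 calls) and 0.392 in *Pld6* KO (158 calls), a difference of -0.518. *Alox5* had the smallest difference (0.0958 and 0.105). The copies that drive these genes can lie far from the annotated starts, and were not examined here.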

How the data were processed

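Whole-genome bisulfite sequencing libraries of WT and *Pld6* KO spermatogonia at P7, 1 for each genotype, were compared. Mapping to mm10 was done by the authors with Bismark, after trimming of the reads and removal of their low-quality parts. The deposited files list every covered CpG with its methylated count, its unmethylated count and the level as a fraction. At all sites this fraction was the methylated count over both counts, and every site on a chromosome lay at a CG of GRCm38.p6, the assembly that mm10 names. Removal of duplicate reads is not given in the sources used here.

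From the deposited counts, sites with calls in both libraries on the 19 autosomes were used (40121137 and 54795794 calls). The levels by distance from L1Md_A matches and by the bases beside the CpG used only those with at most 20 calls in each library. Sites were assigned to 1 feature in the order promoter, exon, intron and intergenic, with RefSeq genes other than pseudogenes, and to repeats by the lower-case bases of the reference. Levels pooled the calls of a region, and regions needed at least 20 calls in each library. Wilson and Newcombe 95% intervals cover counting error only. The within-site difference is the Mantel-Haenszel risk difference over sites. Amplicon sequences with the converted bases put back were located with blastn 2.17.0 at 90% identity over 90% of their length. Promoter sequences came from RefSeq (GRCm38.p6). The scripts ran in Python 3.11.15 with numpy 2.4.6 and pandas 2.3.3 and were tested on simulated calls.

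Named promoters, gene bodies and windows were the 10, 5 and 10 with the largest decrease and the 5 of each with the largest increase, ranked by the bound of the interval nearest to 0. From each gene list the members with the largest and the smallest difference and those past 0.3 were named, and *Tdrd12*, *Impact*, *Snrpn* and the *Pld6* promoter in addition, after their values were seen. The members, lists and rules were chosen with earlier results of these data known. With 1 library on each side, the genotypes were not tested against each other. Alternatives changed the calls required, the weighting of sites, the features and windows, and the stretch around *Pld6*.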

Additional observations from a re-analysis of the deposited data

How the results depend on the processing

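The pooled differences changed with the weighting of sites. With the mean of site levels they were -0.00850 over all sites, 0.00486 at promoters, -0.00105 in exons, -0.00739 in introns, -0.0152 in intergenic sites and -0.0447 in repeats, so that the sign changed over all sites, in exons, introns and intergenic sites. The within-site differences were -0.00272, 0.00629, 0.00109, -0.00406, -0.00426 and -0.0171 in the same order. With at least 5 calls at a site they were 0.0104, 0.0295, 0.0200, 0.00129, 0.0104 and 0.0154, the last with a changed sign. With at most 20 calls the differences were 0.0167 over all sites, 0.00702 in introns, 0.00195 in intergenic sites and -0.0287 in repeats. Sites listed in either library gave 0.0200 over all sites, 0.0481 at promoters, 0.0431 in exons, 0.00641 in introns and 0.00988 in intergenic sites. With all chromosomes the values were 0.0183 over all sites, 0.00831 in intergenic sites and -0.00393 in repeats. A promoter of 0.5 kb each way had 0.0299.

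Counts past the mark moved with the mark, the calls required and the size of the region. At a difference of 0.2, 3.07% of windows were lower and 0.773% higher, and 1.08% of promoters were lower and 2.12% higher. No 100-kb window was lower (0%) or higher (0%) by 0.3. With at least 50 calls, 0.0347% of windows were higher, and 0.139% of promoters were lower and 0.185% higher. With at least 10 calls 0.736% of promoters were lower. With promoters of 0.5 kb each way 0.810% were higher. Leaving out chromosome 11 from 54 to 63 Mb, an alternative added after the data were seen, moved none of the 4 counts by over 1.5 times. Of the 40 named regions, 35 within sites and 38 with at most 20 calls at a site stayed within the counting error of their pooled difference, and none changed sign.

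The cause of these changes was not tested. No paired analysis was possible because 1 file for each genotype was analysed. For the same reason no replicate was left out. The depth of 3.17 and 4.32 calls per site limits statements to pooled regions.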

Other observations

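The third library of the series, from *Dnmt3l* KO spermatogonia, takes no part in the comparison. DNMT3L is the cofactor of *de novo* DNA methylation. In the 2469 windows that were lower by 0.3 in *Pld6* KO and had at least 20 *Dnmt3l* KO calls, its median level was 0.0833, against 0.291 over 223503 windows of any difference. The 142 windows that were higher in *Pld6* KO had 0.132.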
